A study of Mus musculus with 92 samples.

Results

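Peaks of the cohesin subunits STAG3 and STAG1 were compared in wild-type mouse germline stem cells (GSC), self-renewing spermatogonial cells kept in culture. The comparison rests on 3 STAG3 and 2 STAG1 peak lists, out of 30 peak lists and 92 samples in the series. The study concerned STAG3-cohesin in mitotic cells of the male germline. All 5 lists came from the AAG line, which carries Acrosin-EGFP and beta-Actin-EGFP, and the cells had been sorted for that fluorescence. Chromatin immunoprecipitation followed by sequencing (ChIP-seq) finds the places where an antibody recovers more DNA than the background, and a peak is such a place. Beside the 5 lists stand 3 STAG2 lists of the same wild-type GSC and 4 CTCF lists of GSC mutants. The mutants are Stag3 KO cells and the double knockouts labelled Stag1Stag2dKO, Stag1Stag3dKO and Stag2Stag3dKO. No CTCF list of wild-type GSC was used here. Lists of a protein were merged, and an interval backed by 2 or more of them counted as its site, which gave 27734 STAG3 and 8615 STAG1 sites.

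Cohesin is a ring-shaped complex that extrudes DNA loops and holds sister chromatids together. A STAG subunit is part of every ring. STAG1 and STAG2 are those of somatic cells, whereas STAG3 was described first for meiosis, where it works with the kleisins REC8 and RAD21L. Cohesin is often halted by the insulator protein CTCF, and it also gathers at active promoters and enhancers. Many mammalian promoters lie in CpG islands, stretches rich in the dinucleotide CG that are usually free of DNA methylation.

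STAG3 peaks numbered 12832, 38631 and 39681 in the 3 lists, and STAG1 peaks 9641 and 10778. The first STAG3 list stood apart. It was short, and its Jaccard index (shared base pairs over those in the union) was 0.246 with each STAG1 list. With the second and the third STAG3 list, both far longer, the index was lower, at 0.219 and 0.212. The union grows with list length, so these indices do not tell with which lists it shared more base pairs. Cut to equal length, the first STAG3 list had a higher index with the STAG3 lists (0.329 and 0.330) than with the STAG1 lists (0.266 and 0.264). The mean Jaccard index was 0.383 within a protein and 0.181 between proteins (one-sided exact permutation p = 0.2). At equal length it was 0.434 and 0.258, at an exact permutation p = 0.1. With 3 lists against 2, an exact test has 10 arrangements and cannot fall below p = 0.1, so no difference below could pass 0.05. The depth of the libraries is unknown. The peak names place the STAG3 calls in another working directory than those of STAG1 and STAG2, so antibody and calling run cannot be told apart.

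STAG3 lay at gene starts and STAG1 hardly did. Of the peaks in the 3 STAG3 lists, 30.6%, 30.9% and 30.4% lay within 1000 bp of a RefSeq start, against 6.48% and 6.65% in the STAG1 lists. The first STAG3 list, although short, matched the other two in this share. The means were 30.6% ± 0.268 (SD, n = 3) and 6.57% ± 0.120 (SD, n = 2), a difference of 24.1 percentage points at a two-sided exact permutation p = 0.1. Within 2500 bp of either end of a protein-coding gene, called here a gene end, lay 45.5% ± 0.261 (SD, n = 3) of STAG3 peaks. The same share was 18.5% ± 0.180 (SD, n = 2) for STAG1, again at an exact permutation p = 0.1. Outside genes and their ends lay 34.3%, 30.4% and 30.8% of STAG3 peaks and 52.5% and 52.6% of STAG1 peaks.

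CTCF sites showed the reverse order. STAG1 peaks lay almost entirely at CTCF intervals called in all 4 mutants, 98.9% and 97.0% of each list, and STAG3 peaks at 56.4%, 37.4% and 37.4%. The means were 98.0% ± 1.29 (SD, n = 2) and 43.7% ± 10.9 (SD, n = 3), at an exact permutation p = 0.1. At GSC STAG2 sites lay 59.7%, 39.1% and 38.6% of STAG3 peaks, against 96.0% and 92.2% of STAG1 peaks. Here the first STAG3 list was well above the other two.

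Part of these gaps closed when each list was cut to its 9641 strongest peaks by the authors' fold enrichment, the length of the shortest list. The cut STAG3 lists lay at CTCF in 65.2%, 70.3% and 71.5% of their peaks, and the STAG1 lists in 98.9% and 98.4%. At gene starts the means were 26.0% ± 1.11 (SD, n = 3) and 6.21% ± 0.389 (SD, n = 2). In neither measure did the groups overlap, and the exact permutation p of each was 0.1.

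**Figure D1:**
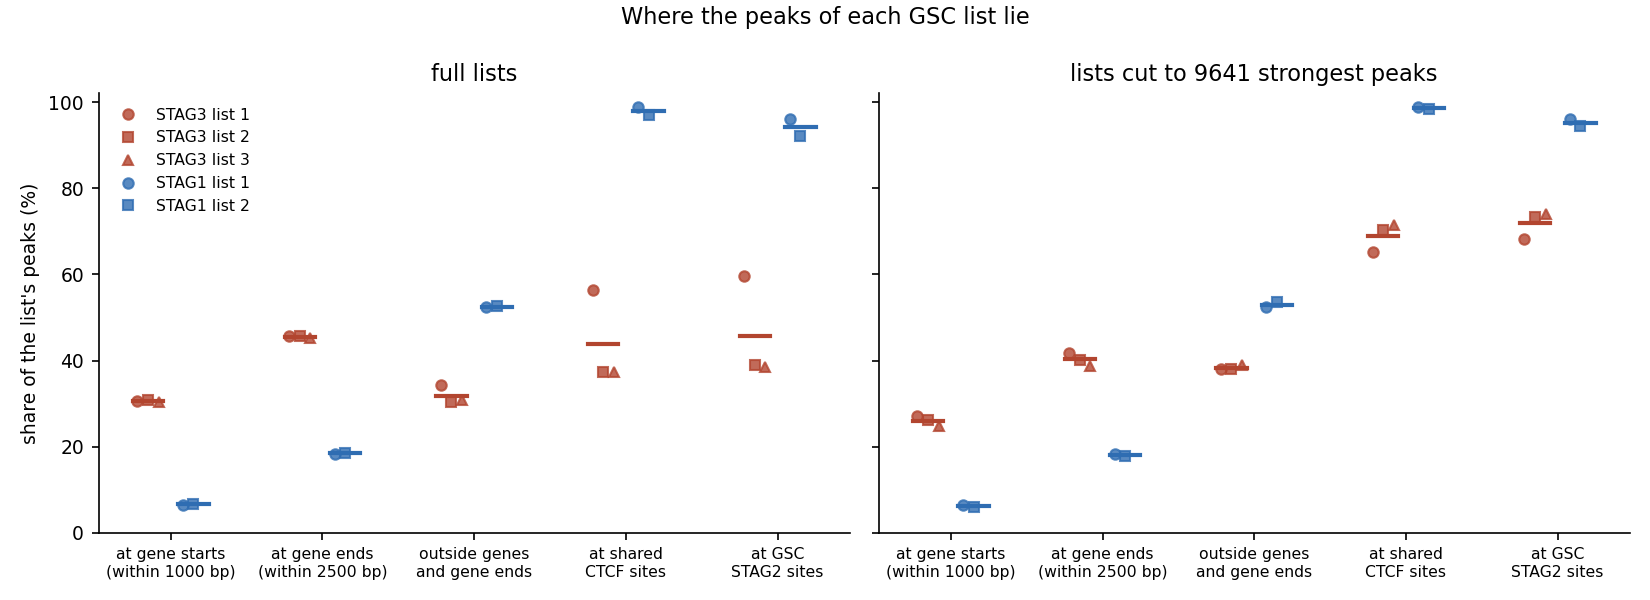
Share of each GSC list's peaks (%) at 5 kinds of place, for full lists (left) and for lists cut to 9641 peaks (right). Points are lists and bars are group means. STAG3 lies above STAG1 at gene starts and gene ends and below it at CTCF and STAG2 sites in both panels, and the first STAG3 list stands above the other two at CTCF in the full lists (56.4%).

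Most STAG1 sites also held STAG3, and most STAG3 sites did not hold STAG1. Of the 8615 STAG1 sites, 7556 (87.7%) overlapped a STAG3 site. Of the 27734 STAG3 sites, 7534 (27.2%) overlapped a STAG1 site, and 20200 held STAG3 alone. Only 1059 sites held STAG1 alone, and 365 of these had no peak in any STAG3 list. The lengths of the lists bear on this: at equal length 58.2% of 8613 STAG3 sites and 61.9% of 8136 STAG1 sites held both. The cut sites were then looked up in the full lists of the other protein. A full STAG3 list had a peak at 96.2% of the STAG1 sites, and a full STAG1 list at 67.2% of the STAG3 sites. The 2824 cut STAG3 sites without any STAG1 peak lay at gene starts in 53.2% and at CTCF in 27.8%.

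The count of sites with STAG3 alone rests on the second and the third STAG3 list. Without the second it was 6355, without the third 6284, and without the first 19544. Sites with STAG1 alone numbered 3420 and 3433 without the second or the third STAG3 list, and 2064 without the first STAG1 list.

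The 3 kinds of site lay in different places. Sites with both proteins were CTCF sites: 99.9% overlapped a shared CTCF interval, 98.5% a STAG2 site, and 7.02% a gene start. Sites with STAG1 alone resembled them, with 96.9% at CTCF, 92.4% at STAG2 sites and 1.61% at gene starts. Sites with STAG3 alone were mixed, with 25.9% at CTCF, 30.8% at STAG2 sites and 43.5% at gene starts. By place, 7479 sites with STAG3 alone lay at a gene start without CTCF and 3931 at CTCF without a gene start. A further 1303 had both features and 7487 had neither. Only 1 site with both proteins and 2 sites with STAG1 alone lay at a gene start without CTCF. At equal length 1230 of 3596 sites with STAG3 alone (34.2%) lay at a gene start without CTCF, against 0 of 5017 with both and 1 of 3096 with STAG1 alone.

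**Figure D2:**
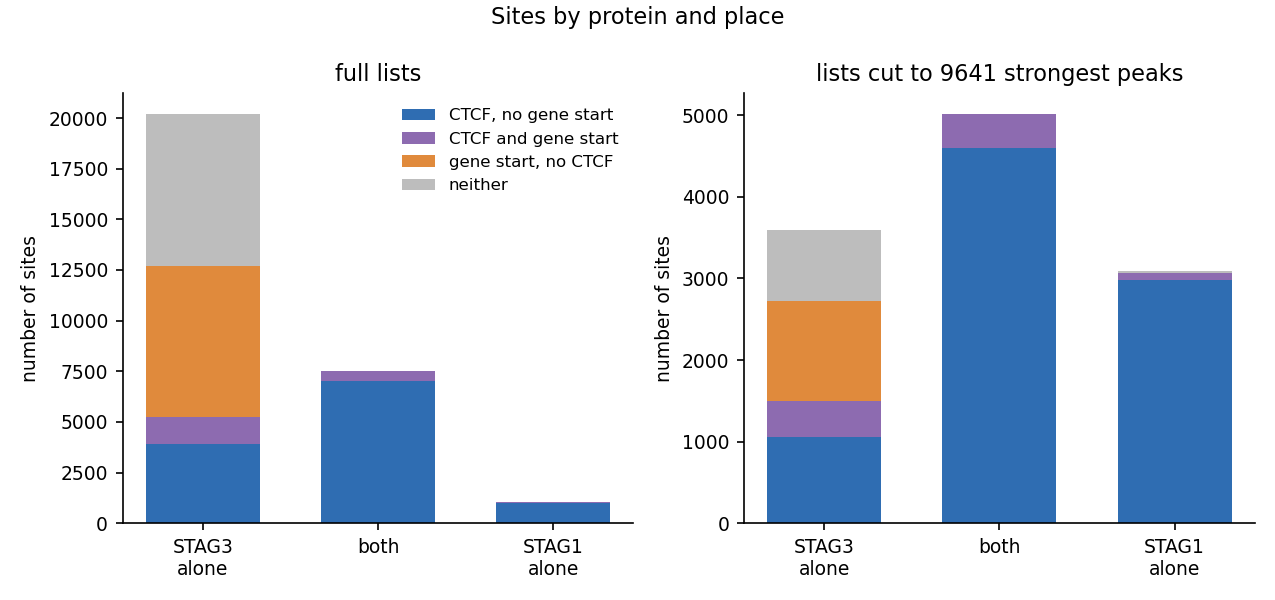
Number of sites with STAG3 alone, both proteins or STAG1 alone, split by overlap with shared CTCF sites and with gene starts (within 1000 bp), for full lists (left) and cut lists (right). Gene starts without CTCF appear with STAG3 alone (7479 sites in the full lists) and are nearly missing from the other 2 bars.

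Within each STAG3 list, the peaks at STAG1 sites were the stronger ones. Their median fold enrichment was 7.35, 8.92 and 9.19 in the 3 lists, against 5.43, 5.26 and 5.08 for peaks without STAG1. Peaks without STAG1 at gene starts off CTCF had medians of 5.43, 5.49 and 5.48. Their median rank percentiles were 36.6, 48.1 and 48.5, below the middle of the first list and near the middle of the second and the third. STAG1 peaks without a STAG3 site were weaker too, with medians of 6.20 and 5.96 against 8.99 and 8.95 for those with one.

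The strongest sites with STAG3 in all 3 lists and no STAG1 peak were of both types. The first lay 8965 bp from Kremen1 (chr11:5181817-5182586, mm10), a receptor that dampens WNT signalling, with folds of 18.2, 25.9 and 31.5 in the 3 STAG3 lists. It overlapped a shared CTCF site and no GSC STAG2 site. Of the 10 strongest sites of this kind, 7 were CTCF sites and none was a STAG2 site. Sites at gene starts among them were those of Ccdc17, Snrpe and Maneal. Snrpe, which encodes a core protein of the spliceosome's snRNPs, had folds of 17.3, 19.9 and 19.8 (chr1:133609649-133610786). Maneal, which encodes an endomannosidase-like protein, had folds of 21.4, 18.3 and 18.8, without CTCF (chr4:124861718-124862978).

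The strongest site with both STAG1 lists and no STAG3 peak lay in the window at an end of Bst1, which encodes an NAD-consuming ectoenzyme (chr5:43841241-43841610). Its folds were 13.8 in each STAG1 list and 50.6, 42.1 and 48.0 in the 3 STAG2 lists. Of the 10 strongest sites of this kind, 9 overlapped CTCF and the same 9 a STAG2 site. Others lay near Fgf20, a growth factor, Mecom, a zinc finger transcription factor, and Ythdc2, a helicase needed for the entry into meiosis. Their distances to the gene body were 91187 bp for Fgf20, 0 for Mecom and 41684 bp for Ythdc2. The strongest sites of all 5 lists were all CTCF and STAG2 sites. The first lay 66852 bp from Smad2, which transmits TGF-beta signals, with folds of 25.6, 34.3 and 36.4 for STAG3 and 36.8 and 39.8 for STAG1.

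At CTCF sites, both proteins followed the rank of the CTCF peak. Of 36623 shared CTCF sites, 20.6% held both proteins, 14.2% STAG3 alone, 2.8% STAG1 alone and 62.4% neither. Sites were ranked by their CTCF fold, averaged as percentiles over the 4 mutants. They were put into 10 groups of nearly equal size. In the strongest group, 91.4% had a STAG3 site and 76.9% a STAG1 site. In the weakest group the shares were 11.9% and 1.09%. The share with STAG3 but not STAG1 moved less, between 8.82% and 21.5% over the groups. The median rank percentile of CTCF was 86.1 at sites with both, 74.3 with STAG1 alone, 66.1 with STAG3 alone and 43.5 with neither. This order held in each of the 4 mutants. The first STAG3 list lay below both STAG1 lists in the strongest group, at 68.8% against 80.3% and 83.8%, and the second and the third lay above, at 93.6% each.

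CTCF sites with STAG3 alone differed from the others in place. Of them, 24.4% lay at gene starts, against 6.83% with both and 1.85% with STAG1 alone, and 52.3% overlapped a STAG2 site, against 98.5% and 95.2%.

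**Figure D3:**
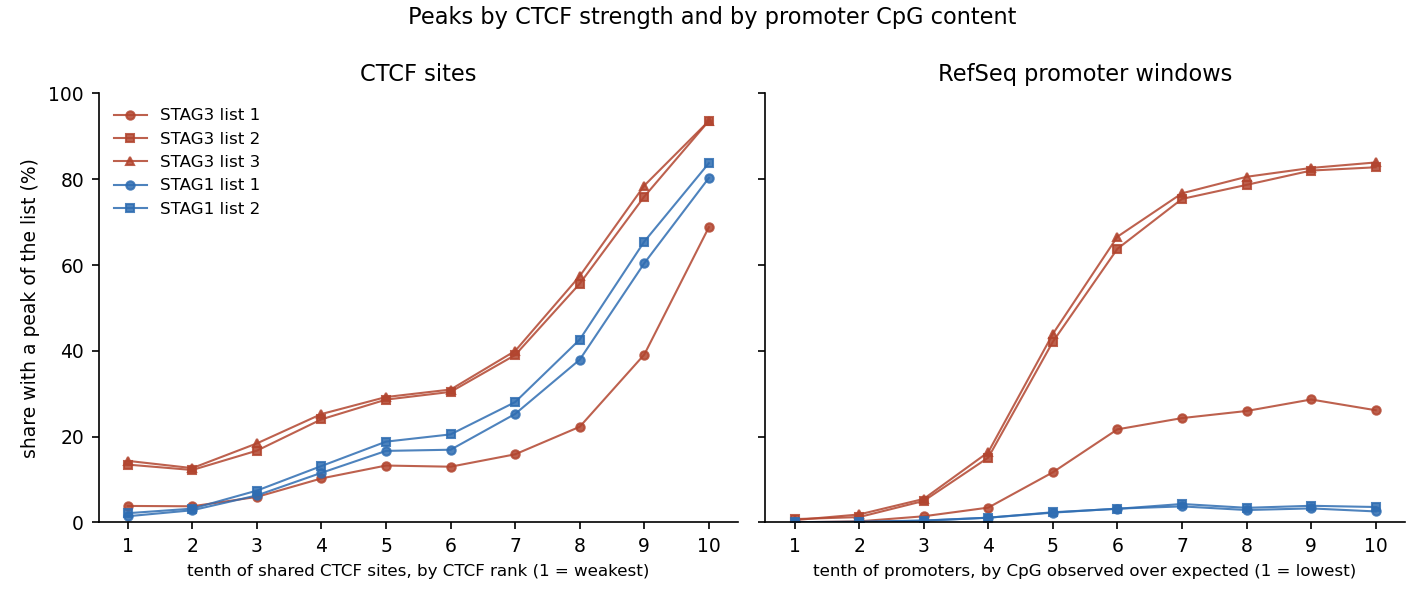
Share with a peak of each list (%), for shared CTCF sites in 10 groups by CTCF rank (left) and for RefSeq promoter windows in 10 groups by CpG observed over expected (right). All lists rise with CTCF rank, whereas with CpG content the STAG3 lists rise to between 26.1% and 83.9% in the highest group and the STAG1 lists reach at most 4.28% in any group.

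STAG3 covered many more promoters than STAG1. RefSeq's promoter table (GRCm38.p6) gives 300 bases for each start, 250 before it and 50 after, and held 21263 starts of 17492 protein-coding genes, with none of chromosome 18. STAG3 without STAG1 overlapped 8797 of these windows (41.4%), both proteins 349 (1.64%), and STAG1 without STAG3 only 5. The CpG ratio compares the CG dinucleotides seen with those the base content would give. Its median was 0.81 in windows with STAG3 alone, 0.77 with both, 0.31 in the 5 with STAG1 alone and 0.27 with neither, so windows with STAG3 alone and with both lay close together. Windows with a ratio above 0.6 and over 50% G and C were called CpG-rich, 9548 in all. They made up 80.2% of windows with STAG3 alone and 77.4% of those with both. The 3 STAG3 lists had a peak in 26.5%, 79.4% and 80.9% of them, and the STAG1 lists in 3.28% and 3.80%. In the other 11715 windows the STAG3 shares were 4.42%, 16.4% and 17.3%, and the STAG1 shares 0.845% and 0.948%. The difference in CpG-rich windows was 58.7 percentage points at an exact permutation p = 0.2, with the STAG3 lists far apart. At equal length the STAG3 lists covered 18.3%, 22.1% and 21.8% of them and the STAG1 lists 3.28% and 3.01% (exact permutation p = 0.1). The GSC STAG2 lists covered 29.7%, 8.53% and 36.1% of the CpG-rich windows, with 25021, 13698 and 25979 peaks.

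Short motifs were searched on both strands. Windows with both proteins held a CTCF core word more often than those with STAG3 alone, and a GC box less often. A CTCF core word (AGGGGGC or AGGTGGC or AGATGGC or AGAGGGC) was in 37.0% of windows with STAG3 alone, 67.6% with both, 23.7% with neither and 29.9% of all windows. The GC box GGGCGG, which SP1-like factors bind, was in 73.3%, 62.8% and 26.1%, and in 46.2% of all. Within CpG-rich windows, a CTCF core word was in 38.0% with STAG3 alone, 35.6% with neither protein and 38.3% of all, so these lay close together. Of CpG-rich windows with both proteins, 69.3% held such a word. Within CpG-rich windows, the GC box was in 78.8% with STAG3 alone, 71.9% with neither protein and 77.0% of all. CCAAT, the NF-Y box, was in 34.1%, 43.1% and 36.0% of those, and in 38.2% of all windows. The ETS word CCGGAAGT was in 9.08% of CpG-rich windows with STAG3 alone and 8.61% with neither, so these hardly differed, and in 5.15% of all windows. NRF1 (GCGCATGCG), CRE (TGACGTCA), E-box (CACGTG) and YY1 words (AAGATGGC, which contains a CTCF core word) lay in 4.32%, 3.74%, 11.9% and 4.84% of CpG-rich windows with STAG3 alone. In CpG-rich windows with neither protein these 4 were found in 5.32%, 3.97%, 11.0% and 5.09%, and in all windows in 2.35%, 2.23%, 7.84% and 3.05%. A match is a description of the letters, not a bound site.

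Examples of each kind are the strongest promoter windows by fold, given 5′ to 3′ along the gene, from RefSeq. Snrpe (chr1:133610231-133610530, minus strand) and Maneal (chr4:124862122-124862421, minus strand) are the strongest windows with all 3 STAG3 lists and no STAG1 list, and capitals mark CG dinucleotides. Their CpG ratios are 0.88 and 1.03, with 24 and 45 CG dinucleotides. The Snrpe window overlaps a shared CTCF site and the Maneal window does not.
Snrpe: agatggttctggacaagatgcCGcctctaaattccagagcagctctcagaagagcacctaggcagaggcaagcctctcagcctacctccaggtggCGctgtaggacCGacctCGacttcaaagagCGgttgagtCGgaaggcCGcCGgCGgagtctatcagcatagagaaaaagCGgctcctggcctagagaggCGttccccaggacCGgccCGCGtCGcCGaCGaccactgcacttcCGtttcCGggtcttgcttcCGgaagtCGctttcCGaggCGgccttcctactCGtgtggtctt
Maneal: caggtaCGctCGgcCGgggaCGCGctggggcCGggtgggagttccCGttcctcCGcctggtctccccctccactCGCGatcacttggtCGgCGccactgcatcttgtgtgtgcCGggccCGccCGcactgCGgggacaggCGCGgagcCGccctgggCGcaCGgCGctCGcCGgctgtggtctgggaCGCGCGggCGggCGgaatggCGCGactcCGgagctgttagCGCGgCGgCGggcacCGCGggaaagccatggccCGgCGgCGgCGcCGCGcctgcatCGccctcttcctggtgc
Grik4 (chr9:42944322-42944621, minus strand) is the strongest window with all 5 lists, and capitals mark CTCF core words on either strand. Gstm6 (chr3:107953417-107953716, minus strand) is the only window with both STAG1 lists and no STAG3 list, and capitals mark the same words. Grik4 encodes a glutamate receptor subunit and has a CpG ratio of 1.16, above those of Snrpe and Maneal. Gstm6 encodes a glutathione transferase and has a CpG ratio of 0.17.
Grik4: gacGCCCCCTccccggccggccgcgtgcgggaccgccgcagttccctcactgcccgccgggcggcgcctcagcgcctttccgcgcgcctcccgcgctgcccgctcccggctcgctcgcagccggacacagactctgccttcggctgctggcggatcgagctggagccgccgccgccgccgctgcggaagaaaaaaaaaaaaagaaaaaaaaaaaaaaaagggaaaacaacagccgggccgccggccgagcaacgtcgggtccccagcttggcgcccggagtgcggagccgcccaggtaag
Gstm6: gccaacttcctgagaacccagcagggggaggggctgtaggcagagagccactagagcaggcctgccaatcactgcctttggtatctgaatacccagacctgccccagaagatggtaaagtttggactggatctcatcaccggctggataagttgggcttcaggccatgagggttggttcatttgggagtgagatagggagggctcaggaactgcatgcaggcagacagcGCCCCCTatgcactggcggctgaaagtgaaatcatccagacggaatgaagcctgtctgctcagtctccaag
Folds at the Grik4 window were 24.6, 32.5 and 26.0 for STAG3 and 20.9 and 24.9 for STAG1. At the Gstm6 window STAG1 folds were 6.01 and 6.43. Each of these 2 windows overlaps a shared CTCF site.

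Peak summits at starts differed in position. Among summits within 1000 bp of the nearest start, the median position was 26.5, 44.0 and 36.0 bp downstream of it in the 3 STAG3 lists. In the STAG1 lists the median position was -108 and -100 bp, that is, upstream. Upstream summits made up 44.5%, 41.7% and 42.7% for STAG3 and 70.3% and 69.5% for STAG1, and the groups did not overlap. The STAG1 values rest on 589 and 679 peaks, the STAG3 values on 3844, 11594 and 11654. In genes longer than 10000 bp with starts on a single strand, the 5′ and 3′ sides could be told apart. Of 11079 such genes, 61.0% had a STAG3 site within 2500 bp of a start and 12.6% within 2500 bp of the 3′ end. STAG1 sites lay near a start in 5.05% and near the 3′ end in 3.14%.

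**Figure D4:**
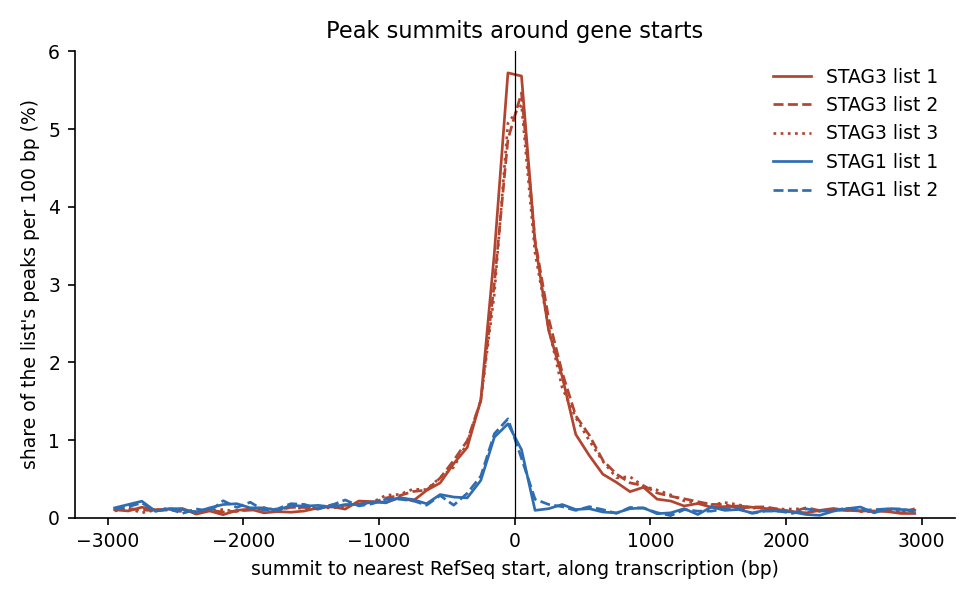
Share of each list's peaks per 100 bp (%) by the signed distance of the summit from the nearest RefSeq start, with downstream positive. Peaks of chromosome 18 are left out. STAG3 summits pile up at the start in all 3 lists, and STAG1 summits form a lower pile on the upstream side (median -108 and -100 bp).

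Sites of either protein were scarce on the X chromosome, and STAG3 more so. GSC are male cells with a single X. Of the peaks, 0.436%, 0.834% and 0.834% of the STAG3 lists and 1.49% and 1.46% of the STAG1 lists were on X (exact permutation p = 0.1). At equal length this was 0.363%, 0.311% and 0.301% against 1.49% in each STAG1 list. X holds 4.41% of protein-coding genes and 2.63% of shared CTCF sites. STAG3 sites covered 7.66% of the 261 CpG-rich promoter windows on X and 78.7% of the 9286 on autosomes. The 3 STAG3 lists had a peak in 1.15%, 16.9% and 21.8% of those X windows, and both STAG1 lists in 0. At CTCF sites on X, STAG3 sites covered 11.1% and STAG1 sites 11.6%, against 35.5% and 23.7% on autosomes. Sites with STAG1 alone were on X in 4.82%, and those with STAG3 alone in 0.525%.

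Earlier stages of the same lineage in culture gave a further comparison, although they came from the BVSC line (Blimp1-mVenus and Stella-ECFP) and not from AAG. These were embryonic stem cells, epiblast-like cells and the primordial germ cell-like cells labelled d2PGCLC and d4c7PGCLC. STAG1 of embryonic stem cells had a site at 92.7% of the GSC sites with both proteins, 89.7% of those with STAG1 alone and 16.0% of those with STAG3 alone. STAG2 of embryonic stem cells was found at 97.3%, 93.6% and 45.1%. GSC sites with STAG3 alone at gene starts off CTCF overlapped a STAG2 site of at least 1 earlier stage in 66.5%, and a STAG1 site in 4.61%. In GSC, STAG2 sites overlapped 22.3% of them. Over all sites with STAG3 alone these shares were 62.5%, 22.6% and 30.8%, so the first lay close. At sites with STAG3 alone and neither a gene start nor CTCF they were 41.7%, 4.46% and 24.2%. The merged STAG2 sites of the earlier stages are many, 90545, against 37969 for STAG1 and 19827 STAG2 sites of GSC.

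Among 21887 protein-coding genes, 10513 (48.0%) had a STAG3 site and no STAG1 site at an end, 1627 (7.43%) had both, 57 (0.26%) STAG1 alone and 9690 neither. At equal length 2620 genes (12.0%) had STAG3 alone, 1205 (5.51%) both and 371 (1.7%) STAG1 alone. Of the 1627 genes with both, 1557 had both proteins at one shared place. By list, 5948, 13358 and 13540 genes had a STAG3 peak at an end and 1910 and 2154 a STAG1 peak. All 3 STAG3 lists and no STAG1 list had a peak at an end of 4046 genes (18.5%). All 5 lists had one at 1316 (6.01%), and both STAG1 lists without any STAG3 list at 12 (0.0548%). Without the second or the third STAG3 list, genes with STAG3 alone fell to 4395 and 4316, and genes with STAG1 alone numbered 361 and 365. Without the first STAG1 list the latter were 118, with each peak of the second list counted as a site.

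Genes of the cohesin machinery were covered unevenly. Stag3 had no peak of any of the 5 lists at an end, and Stag1 only a single weak STAG3 peak (fold 3.35, second list). Stag2 lies on X and had STAG1 peaks of 8.79 and 8.57 and a STAG3 peak of 4.80 in the second list alone. At Rad21, the mitotic kleisin, the third STAG3 list had a peak of 5.48. Ctcf had STAG3 peaks of 7.78 and 9.78 in the second and the third list and no STAG1 peak. Smc3, a core ring subunit, had STAG3 folds of 3.65, 8.01 and 7.43, and Rad21l, the meiotic kleisin, 6.07, 6.05 and 5.67, both without STAG1. Pds5b, a cohesin regulator, had peaks in all 5 lists, of 5.75, 12.1 and 8.21 for STAG3 and 11.8 and 12.4 for STAG1. Of 20 genes of the cohesin and CTCF list, 9 had STAG3 alone, 1 both and 1 STAG1 alone. The shares with STAG3 alone and with both, 45.0% and 5.00%, are near the 48.0% and 7.43% of all genes.

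Housekeeping genes mostly have CpG island promoters, and their lists lay above the 48.0% of all genes with STAG3 alone. It was found at 61 of 63 replication-dependent histone genes (96.8%), which supply histones in S phase. None of them had a STAG1 site, but few of all genes did (7.43% with both proteins, 0.26% with STAG1 alone). In the 3 STAG3 lists 34, 62 and 63 of these genes had a peak, and in the STAG1 lists 3 and 0. Of all 21887 genes, 5948, 13358 and 13540 had a STAG3 peak and 1910 and 2154 a STAG1 peak. Histone genes lie in clusters and often share a promoter region: H2ac1 and H2bc1 had the same folds of 7.67, 6.86 and 7.82. At equal length 19 of the 63 had STAG3 alone (30.2%, against 12.0% of all genes). STAG3 alone was also found at 66 of 79 cytoplasmic ribosomal protein genes, 65 of 78 mitochondrial ribosomal protein genes, 72 of 98 respiratory chain genes and 38 of 48 splicing factor genes. Both proteins were at 4, 4, 8 and 4 of these, or 5.06%, 5.13%, 8.16% and 8.33%, near the 7.43% of all genes. At equal length STAG3 alone was at 19.0%, 28.2%, 18.4% and 12.5%, against 12.0% of all genes. At Rps19, a protein of the small ribosomal subunit, STAG3 folds were 7.35, 11.7 and 7.82, and at Cox18, an assembly factor of cytochrome oxidase, 11.1, 19.0 and 12.3, both without a STAG1 peak. Ndufc1, a complex I subunit, had peaks in all 5 lists, of 8.31, 16.2 and 17.2 for STAG3 and 13.4 and 10.1 for STAG1. Translation initiation factors (38 of 55) and the proteasome (32 of 49) had STAG3 alone in 69.1% and 65.3%, and at equal length in 18.2% and 14.3%.

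Proliferation and chromatin genes followed. STAG3 alone was at 22 of 28 cell cycle regulators, 19 of 32 DNA replication genes and 26 of 32 chromatin and DNA methylation genes. These are 78.6%, 59.4% and 81.2% against 48.0% of all genes. At equal length they were 17.9%, 15.6% and 15.6%, against 12.0% of all genes, and each of the 3 shares rests on only 5 genes. Ccne2, the S-phase cyclin E2, had STAG3 folds of 8.95, 8.46 and 8.02. E2f1, a driver of S-phase genes, had 5.43, 10.8 and 7.24. Chd4, the NuRD remodeller, had 6.71, 8.46 and 8.41, and Hdac1, its deacetylase partner, 6.07, 7.55 and 8.41. None of these 4 had a STAG1 peak. Dnmt3l, which aids DNA methylation in germ cells, had peaks in all 5 lists, of 11.2, 12.6 and 15.1 for STAG3 and 4.17 and 8.18 for STAG1.

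Spermatogonial genes carried STAG3 alone in 22 of 29 cases, both in 2 and neither in 5. The share with STAG3 alone was 75.9% against 48.0% of all genes, and at equal length 17.2% against 12.0%. Both proteins were at 6.90%, near the 7.43% of all genes. Peaks of the 3 STAG3 lists were at 13, 26 and 27 of the 29, and of each STAG1 list at 3. Over all 21887 genes these counts were 5948, 13358 and 13540 for STAG3, and 1910 and 2154 for STAG1. Etv5, a transcription factor that supports self-renewal, had STAG3 folds of 5.75, 9.84 and 10.6, and Id4, a mark of stem spermatogonia, 5.43, 8.46 and 7.82. Lin28a, an RNA-binding protein of undifferentiated spermatogonia, had 6.39, 7.78 and 8.41. Bcl6b, a repressor induced by GDNF, had peaks in all 5 lists, of 11.5, 17.8 and 13.9 for STAG3 and 21.3 and 16.6 for STAG1. Among 24 genes of GDNF and FGF signalling, 17 had STAG3 alone, 6 both and 1 STAG1 alone. These are 70.8% and 25.0% for STAG3 alone and both, against 48.0% and 7.43% of all genes. At equal length STAG3 alone was at 8.33%, below the 12.0% of all genes. Spry2, a feedback inhibitor of FGF signalling, had folds of 8.31, 14.9 and 20.7 for STAG3 and 9.98 and 12.9 for STAG1. Egr1, an immediate early factor, had 5.43, 13.3 and 11.1 for STAG3 and 7.20 and 8.37 for STAG1. Peak lists hold no expression, so the cell type could not be checked against RNA. Of 12 marker genes of Sertoli cells, 6 had STAG3 alone and 4 both. These are 50.0% and 33.3%, against 48.0% and 7.43% of all genes. Of 14 fibroblast markers, 2 had STAG3 alone, 2 both and 10 neither (71.4%, against 44.3% of all genes).

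Genes that act in meiosis were covered by STAG3 as well. It lay alone at 16 of 22 meiotic recombination genes and 12 of 19 genes of the synaptonemal complex and chromosome axis. None of the genes in these lists had a STAG1 site, but few of all genes did (7.43% with both proteins, 0.26% with STAG1 alone). The shares with STAG3 alone, 72.7% and 63.2%, compare with 48.0% of all genes, and at equal length 5 and 2 genes had STAG3 alone. At equal length that is 22.7% of the recombination genes against 12.0% of all genes, and 10.5% of the synaptonemal list, below it. Sycp1, the transverse filament protein, had folds of 5.75, 6.63 and 5.08. Gm960, the TOPOVIB-like partner of SPO11, had 8.31, 13.7 and 9.78, and Mnd1, a cofactor of strand exchange, 5.43, 5.49 and 9.58. Of 15 meiotic entry genes 9 had STAG3 alone and 1 both, and of 22 PGC and late germline genes 15 and 1. Both proteins were thus at 6.67% and 4.55%, against 7.43% of all genes, and each share rests on 1 gene. STAG3 alone was thus at 60.0% and 68.2%, but at equal length at 6.67% and 4.55%, below the 12.0% of all genes. Dazl, a germ cell RNA-binding protein, had STAG3 folds of 5.11, 6.63 and 6.65. Id2, an inhibitor of bHLH factors, was the meiotic entry gene with both, at 12.8, 15.1 and 18.6 for STAG3 and 32.7 and 36.3 for STAG1.

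Developmental and clustered families looked different. Of 39 Hox genes, 17 had STAG3 alone, 12 both and 10 neither, so both proteins were at 30.8% against 7.43% of all genes. STAG3 alone was at 43.6%, near the 48.0% of all genes. Neighbouring Hox genes share sites: 7 distinct STAG1 sites lay at their ends. Hoxb8 and Hoxb9 shared peaks of 7.99, 20.4 and 20.9 for STAG3 and 25.8 and 19.2 for STAG1. Hoxa5 and Hoxa6 shared peaks of 6.39, 10.1 and 7.82, and 32.3 and 25.0. Clustered protocadherins are cell surface genes of neurons with CTCF sites at many promoters. STAG3 alone was at 6 of 57 (10.5%), both at 7 (12.3%), STAG1 alone at 3 and neither at 41 (71.9%). Over all genes these shares were 48.0%, 7.43%, 0.26% and 44.3%. At equal length, 0 had STAG3 alone and 8 had STAG1 alone, against 12.0% and 1.7% of all genes. Shared CTCF sites lay at 51 of the 57 and STAG2 sites at 31, against 6912 and 5532 of all 21887 genes. Pcdhac1 had folds of 15.3, 26.8 and 19.9 for STAG3 and 22.9 and 22.5 for STAG1, and Pcdhb5 had STAG1 peaks of 5.68 and 5.65 and no STAG3 peak. Olfactory receptor genes, poor in CpG islands, had neither protein in 1100 of 1110 (99.1%, against 44.3% of all genes).

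The remaining lists lay between these. STAG3 alone was at 8 of 16 naive, 4 of 10 core and 9 of 14 formative pluripotency genes. Both proteins were at 1, 1 and 2 of them, or 6.25%, 10.0% and 14.3%, against 7.43% of all genes. The shares with STAG3 alone were 50.0%, 40.0% and 64.3%, the first 2 near the 48.0% of all genes, and at equal length 6.25%, 10.0% and 7.14%, below 12.0%. Imprinted genes had STAG3 alone in 17 of 25 (68.0%, and 12.0% at equal length, as in all genes). They had both proteins in 3 (12.0%, against 7.43% of all genes). Peg10 and Sgce were among these 3 through a shared promoter region (STAG3 folds 8.31, 9.15 and 6.45, STAG1 folds 10.6 and 12.5). Neural genes had 8 and 3 of 12 (66.7% and 25.0%). Mesendoderm genes had 7 and 1 of 12 (58.3% and 8.33%), with 1 more carrying STAG1 alone. All genes had 48.0% and 7.43%, so both proteins at mesendoderm genes were near that share. At equal length STAG3 alone was at 16.7% of each of these 2 lists. Genes named Zfp, mostly zinc finger factors, had 222 and 21 of 394, so STAG3 alone was at 56.3%, and at 9.64% at equal length. Both proteins were at 5.33% of them, against 7.43% of all genes.

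**Figure D5:**
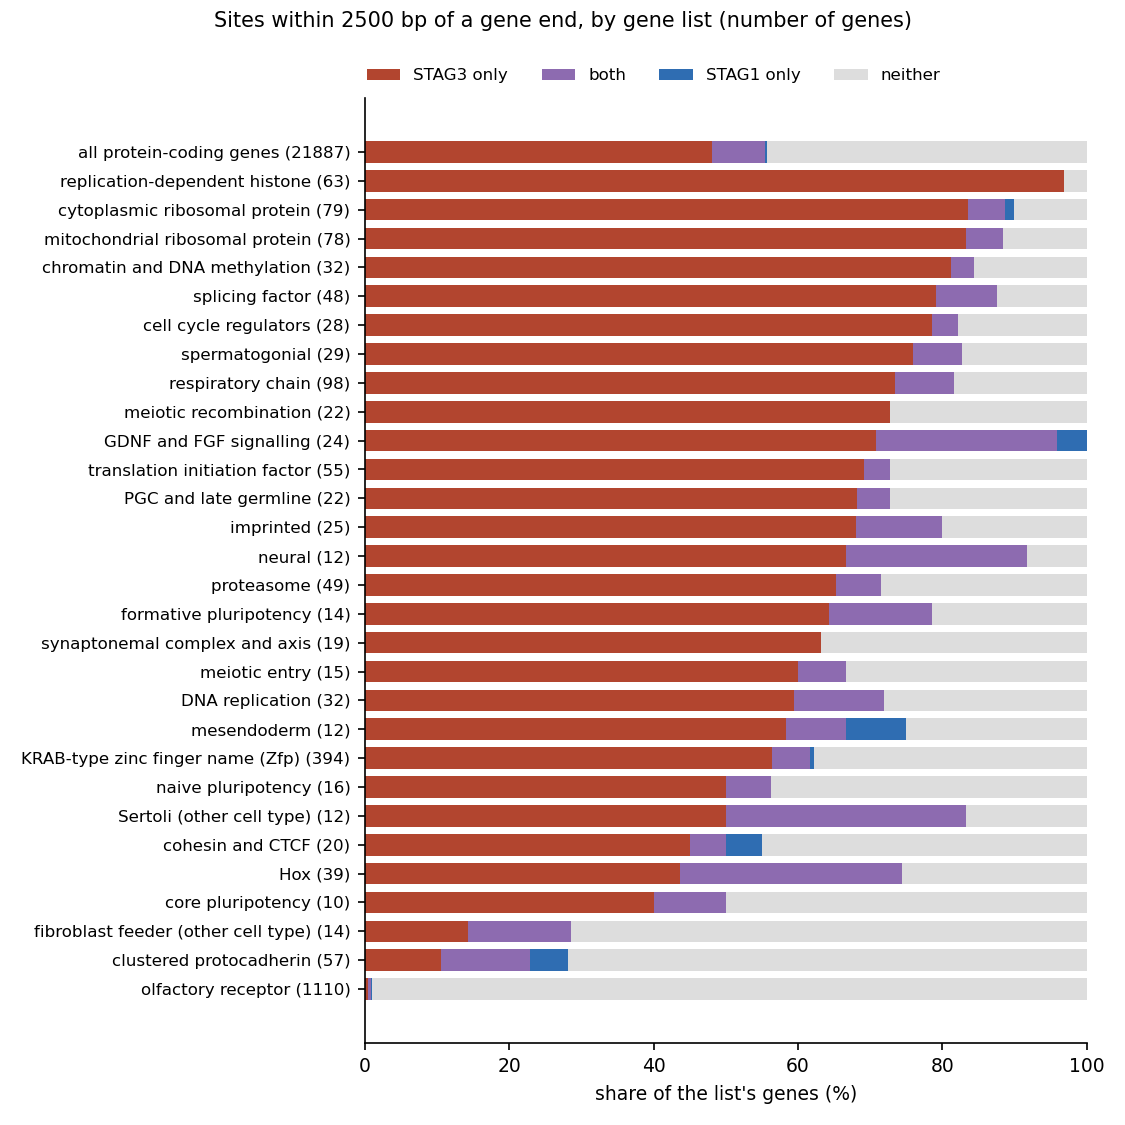
Share of the genes of each list (%) with STAG3 alone, both proteins, STAG1 alone or neither at a gene end, with the number of genes in parentheses. Replication-dependent histone genes stand highest with STAG3 alone (61 of 63), clustered protocadherins and olfactory receptors lowest, and all protein-coding genes (48.0%) are shown on top.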

How the data were processed

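STAG3, STAG1 and STAG2 lists of wild-type GSC were called per library, and CTCF lists on pooled replicates of each mutant, per the peak names in the deposited files. The submitters' processing notes name MACS2, Bowtie2 2.3.4.1, the trimmers cutadapt 1.9.1 and Trim Galore 0.4.1, deepTools 3.5.0, bedtools 2.29.2 and SAMtools 1.7, with the builds mm10 and GRCm38.p3. MACS2 options and control libraries: not given in the sources used here. For each peak the authors' lists give a fold enrichment over background (a linear ratio), −log10 p-values and −log10 q-values, and a whole-number score. These deposited values only ranked, filtered or described peaks within a list, and every peak had −log10 q of at least 2. Sequencing depth is unknown, and a missing peak means only that the authors' caller listed none.

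Intervals were counted as overlapping from 1 bp. Shared CTCF sites were called in all 4 mutants. RefSeq's GRCm38.p6 table supplied the genes (21887 protein-coding genes on chromosomes 1 to 19, X and Y), matched by position, and starts with strand from its promoter table. Starts of chromosome 18 were not used here, so its peaks count as lying away from starts. In the summit positions its peaks were left out, leaving 12475, 37522 and 38543 STAG3 and 9348 and 10444 STAG1 peaks. In all, 1 listed gene name could not be matched. Lists, not peaks, were the replicates in two-sided exact permutation tests (one-sided for the Jaccard index), computed with Python 3.11.15, numpy 2.4.6 and pandas 2.3.3. The interval code was tested on simulated intervals against bedtools 2.31.1. Counts over sites and genes have no test. The labels do not say whether lists came from separate cultures, so a p-value measures only the spread between them.

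Genes and sites named are Stag1, Stag2, Stag3, Rad21 and Ctcf, genes nearest to the 10 strongest sites of each kind, and up to 5 genes of each kind in each list. Kinds were a peak in all 3 STAG3 lists and no STAG1 list, the reverse, and all 5 lists. Strength was the mean rank percentile of fold enrichment within the lists. Printed promoters were the strongest of each kind, with the second for STAG3. The members, gene lists and tests were chosen with earlier results of these data known. Alternatives were lists of equal length, −log10 q of at least 5, an overlap of 50% of the shorter interval, other numbers of lists behind a site, windows of 1000 bp, other CTCF and STAG2 sets, and leaving out each list. Values on gene starts and CpG-rich promoters were added after seeing the data.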

Additional observations from a re-analysis of the deposited data

How the results depend on the processing

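The directions of all differences between lists held under every alternative run, with exact permutation p from 0.1 to 0.3, or at least 0.25 with a list left out. Counts of sites depended on list length. Cut to equal length by fold enrichment, 58.2% of STAG3 and 61.9% of STAG1 sites held the other protein, with 3596 sites of STAG3 alone, 3096 of STAG1 alone and 5017 of both. CTCF covered 41.6% and 100.0% of sites with STAG3 alone and both, STAG2 48.3% of the first, and gene ends 21.1% of the second, with 2620 and 371 genes of STAG3 or STAG1 alone. Cut by q-value, the same quantities were 58.1%, 61.1%, 3618, 3204, 5015, 40.9%, 100.0%, 45.4%, 21.0%, 2546 and 396. Where a site needed every list, STAG3 and STAG1 sites held the other in 46.1% and 59.7%, and 5980 and 3474 were alone. CTCF then covered 30.1% of sites with STAG3 alone and 99.9% of both, STAG2 37.0% of the first, gene ends 65.9% and 21.7%, with 4299 and 369 genes. Where any list sufficed, 38602 sites had STAG3 alone, with CTCF at 16.7%, STAG2 at 17.5% and gene ends at 48.6%, and CTCF at 98.2% of sites with both. CTCF of any mutant covered 29.2% of STAG3 alone and 99.9% of both, and any STAG2 peak 54.1% of STAG3 alone. With 50% overlap, gene ends took 17.8% of sites with both. Windows of 1000 bp gave gene-end shares of 51.1% and 11.9% for STAG3 alone and both, and 934 genes with both and 23 with STAG1 alone.

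With each list left out in turn, sites with STAG3 alone ranged from 6284 to 19613, with STAG1 alone from 1173 to 3433 and with both from 5172 to 8684. Where a STAG1 list was left out, each peak of the remaining STAG1 list counted as a site. Genes ranged from 4316 to 10348, 64 to 365 and 1319 to 2036. STAG3 sites with STAG1 ranged from 27.5% to 45.1% and STAG1 sites with STAG3 from 60.2% to 86.4%. In sites with STAG3 alone, CTCF ranged from 22.1% to 29.5%, STAG2 from 27.9% to 36.2% and gene ends from 59.2% to 64.9%. In sites with both, CTCF ranged from 98.5% to 99.9% and gene ends from 19.3% to 21.5%. The log2 ratio of peak numbers ranged from 1.13 to 1.94, and the CpG-rich difference from 49.4 to 76.6 points. Of 108 named genes with STAG3 only, 45 were still of that kind at equal length, and 40 of 62 named for all 5 lists.

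Replicate numbers 1 and 2 occur in both groups, and the labels give no source that would pair them. With the replicate block over these 2 pairs, the differences were 27.2 points at gene ends, 24.2 at gene starts and -51.1 at CTCF, in the same direction as without it. Depth is unknown, so unequal sensitivity of the libraries cannot be told apart from unequal binding.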
